A study of Mus musculus with 6 samples.

Results

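Heat shock and chaperone genes were followed in mouse dermal fibroblasts in which an inhibitor of DNA methylation had, or had not, reactivated a silenced X-linked transgene. The set was defined by name and not by the signals: 35 genes for cytosolic heat shock proteins, their co-chaperones, 4 mitochondrial chaperone genes counted with them and the heat shock factors, each represented by its brightest probe set among those carrying that gene symbol alone. Of the 35 genes, 33 had such a probe set, and 32 of these were bright enough to be tested among 13223 genes (27022 probe sets). No probe set carried Hsf1 or Hsp90ab1 as its single symbol, and these genes were not analysed here. Hsf2 was too dim to be tested.

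The fibroblasts came from neonatal mice aged 0 to 2 days, labelled B6, the offspring of 129/ICR males with an X-linked GFP transgene (driven by a chicken β-actin promoter with a CMV enhancer) and BL6 females. In every group, female heterozygous cells that did not express GFP, and so carried the transgene on the inactive X, had been collected by cell sorting, and RNA was taken at passage 4. GFP-positive and GFP-negative cells had both received 5-aza-2'-deoxycytidine, a nucleoside analog that blocks the copying of DNA methylation, at 4 μM for 48 hours with 24 hours of recovery, and were sorted again by whether GFP had come on. The treatment labels name the drug for these cells, although their descriptions read untreated beside a dose. Control cells were untreated and not sorted again, so the drug and the further sort cannot be told apart, and the labels give control replicate 2 as mixed in sex. Each group had 2 Affymetrix arrays, which the labels call biological replicates.

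Heat shock proteins bind unfolded or partly folded proteins. HSP70 proteins work in cycles of ATP hydrolysis that J-domain proteins start and that HSP110 proteins and BAG proteins reset by exchanging the nucleotide, HSP90 proteins receive part of their clients from HSP70 through the adaptor Stip1, and small heat shock proteins hold unfolded proteins without using ATP. Heat shock factor 1 binds heat shock elements, inverted repeats of the unit GAA, in the promoters of many of these genes when unfolded proteins accumulate.

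The promoters are shown because heat shock elements are the sequence that many of these genes share. RefSeq promoter sequences (build GRCm38.p6, 250 bases before to 50 bases after the start) were matched for 27 of the 35 genes, with 37 windows because some genes have several starts, and a gene counts here if any of its windows holds the motif. A 3-unit element, GAANNTTCNNGAA on either strand (TTCNNGAANNTTC when read from the other strand), was present in 5 of the 27 genes (18.5%), against 179 of 27025 genes (0.662%). A 2-unit element, GAANNTTC, which reads the same on both strands and is part of every 3-unit element, was present in 13 of 27 (48.1%), against 2442 of 27025 genes (9.04%). With each gene taken at its highest window, the 27 genes held a median of 25 CpG dinucleotides, the target of DNA methylation, with a range from 6 to 44, and the median over all genes was 8. Their median GC content, taken likewise, was 62.7%, against 53.3% over all genes. The stretches with a 3-unit element are printed 5′ to 3′ on the gene's strand, with all overlapping 3-unit elements in capitals: Chordc1 at chr9:18292260-18292289 (plus strand), Dnajb6 at chr5:29735844-29735873 (plus strand), Hspd1 and Hspe1 at chr1:55088053-55088082 (minus and plus strand), and Hsph1 at chr5:149636279-149636308 (minus strand).
Chordc1: ccgGAACGTTCGGGAAAATTCCTGAAgcag
Dnajb6: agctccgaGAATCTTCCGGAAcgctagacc
Hspd1: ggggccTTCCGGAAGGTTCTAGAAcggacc
Hspe1: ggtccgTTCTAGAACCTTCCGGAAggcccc
Hsph1: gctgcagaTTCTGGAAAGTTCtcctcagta
Hspd1 and Hspe1, which encode the mitochondrial chaperonin and its co-chaperonin, read the same site in opposite directions. In Chordc1 the run of units crosses the start, and in Hsph1 the element lies past it.

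Promoters of 4 further genes are shown: Hspb1 and Stip1, which passed a test described next, and Hspa1a and Hspa1b, the near copies that did not pass it but had the highest differences among the HSP70 genes. No promoter entry was matched for Hsp90aa1. Given are the 250 bases before the start of Hspb1 (chr5:135887669-135887918, plus strand), Hspa1a (chr17:34972157-34972406, minus strand), Hspa1b (chr17:34959239-34959488, minus strand) and Stip1 (chr19:7040027-7040276, minus strand), with 2-unit elements in capitals.
Hspb1: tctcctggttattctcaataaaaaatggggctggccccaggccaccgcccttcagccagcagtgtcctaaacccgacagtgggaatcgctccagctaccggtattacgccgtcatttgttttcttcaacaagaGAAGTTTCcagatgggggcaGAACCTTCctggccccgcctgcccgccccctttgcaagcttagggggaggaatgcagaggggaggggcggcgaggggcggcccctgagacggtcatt
Hspa1a: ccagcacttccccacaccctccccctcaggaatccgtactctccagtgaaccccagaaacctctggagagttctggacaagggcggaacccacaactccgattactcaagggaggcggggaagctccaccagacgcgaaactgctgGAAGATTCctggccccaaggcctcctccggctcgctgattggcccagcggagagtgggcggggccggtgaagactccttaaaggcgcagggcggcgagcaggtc
Hspa1b: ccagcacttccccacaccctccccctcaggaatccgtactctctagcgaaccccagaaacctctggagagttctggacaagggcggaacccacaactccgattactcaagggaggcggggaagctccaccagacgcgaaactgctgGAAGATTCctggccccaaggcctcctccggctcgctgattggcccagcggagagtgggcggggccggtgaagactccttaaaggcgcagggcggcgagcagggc
Stip1: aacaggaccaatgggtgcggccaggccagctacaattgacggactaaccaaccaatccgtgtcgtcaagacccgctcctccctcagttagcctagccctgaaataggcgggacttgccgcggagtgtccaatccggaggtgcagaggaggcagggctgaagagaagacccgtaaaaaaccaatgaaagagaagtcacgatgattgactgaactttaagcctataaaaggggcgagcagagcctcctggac
Hspb1 held elements that began 117 and 97 bases before the start, and Hspa1a and Hspa1b held 1 each, 104 bases before it. The stretches of Hspa1a and Hspa1b were identical at 247 of 250 positions (98.8%), and their coding sequences are also nearly the same, so a probe set of either gene can read both. The Stip1 stretch held neither motif, which says only that these letters are not in this window.

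Signals are MAS5 intensities in arbitrary units, scaled here to the same trimmed mean on every array, and a log2 difference is taken on log2(signal + 30.64). On this scale a low gene's difference is understated, and signals of different genes are not compared as amounts. The GFP-positive and GFP-negative arrays of replicate 2 had been deposited on a scale 9.90 and 8.06 times lower than the others. After scaling, the replicate 2 arrays of all 3 groups still differed from the replicate 1 arrays at the dim end, with lower quartiles of 19.2 to 22.6 against 38.7 to 42.5. Each difference is therefore given within replicate 1 and within replicate 2, and the limma fit is given without and with the replicate number as a block. The labels do not say that a number marks a shared batch, and with only 2 numbers the block's p-values rest on little. A gene is said here to have risen or fallen where its adjusted p was under 0.05 in one of these fits, and the fit is named. Members are counted at their brightest probe sets unless said otherwise. Shares of probe sets cover all those tested, dim ones included, so the sets compared are unlike. In a bulk sample, fewer cells of a type and less RNA per cell cannot be told apart.

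Set against control cells, GFP-positive cells had raised signals of Hspb1, Hsp90aa1, Chordc1 and Stip1, the only 4 of the 32 genes whose brightest probe set rose in the fit with the replicate block. Their log2 differences were 0.56 to 0.73, and 25 of the 32 genes had a positive difference (78.1%, against 54.4% of all 13223 genes). Without the block, limma called 0 of the 32 genes at an adjusted p under 0.05, and 3 had an unadjusted p under 0.05, all higher in GFP-positive cells (Hsp90aa1, Stip1 and Hspa1a). That fit called 0.122% of all probe sets (33 of 27022), and 7.04% had an unadjusted p under 0.05, 3.6% on the higher side. With the block, 6.21% of probe sets were called, 3.15% higher and 3.06% lower, beside 4 of 32 members higher (12.5%) and 0 lower. At an unadjusted p under 0.05 the blocked fit had 13 members higher (40.6%, against 11% of probe sets) and 0 lower (against 9.27%). With the block but without a mean-variance trend in the variance estimates, which calls 8 probe sets in all, none of the 4 genes was called. Over all 80 usable probe sets of the members, the blocked fit called 7 higher (8.75%) and 0 lower, and these also included the dimmer probe set of Hsph1.

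**Figure D1:**
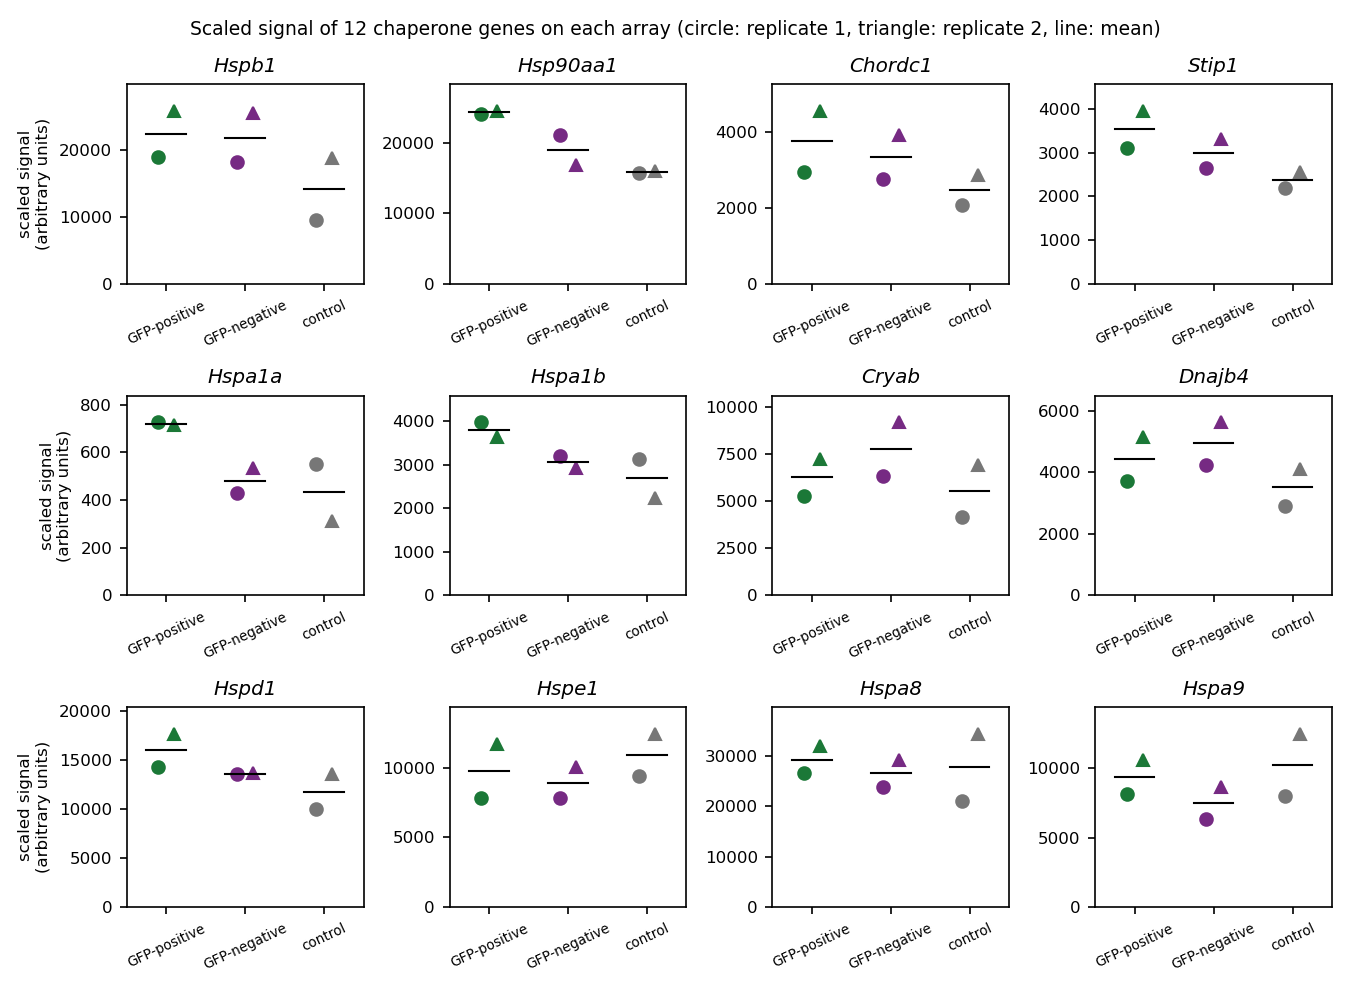
Scaled signal, in arbitrary units on axes that start at 0, of 12 heat shock and chaperone genes, each at its brightest probe set, on each of the 6 arrays (circle replicate 1, triangle replicate 2, line the mean of the 2). In GFP-positive cells Hspb1, Chordc1 and Stip1 lay above control within both replicate numbers, Hsp90aa1 lay at 24188 and 24623 against 15718 and 16047, and the control arrays of Hspa8 enclosed all treated ones at the probe set shown, its brightest.

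Among the small heat shock genes, Hspb1 alone passed the test. Hspb1 (HSP25, which also binds actin filaments) had a signal of 18965 and 25836 in GFP-positive cells, 18124 and 25455 in GFP-negative cells, and 9489 and 18787 in control cells, with replicate 1 given first as throughout. Within each replicate number both treated arrays were above their control, while GFP-negative replicate 1 lay below control replicate 2. The log2 difference of GFP-positive against control cells was 0.73 ± 0.36 (SE, n = 2 each), 1.00 within replicate 1 and 0.46 within replicate 2, with a limma adjusted p of 0.784 without the block and 0.0133 with it. Hspb1 was also the only member that rose in GFP-negative cells: its difference from control was 0.68 ± 0.36 (0.93 and 0.44 within the replicate numbers), with a limma adjusted p of 0.9998 without the block and 0.0260 with it. The size moved most when a control array was left out, which also unbalances the replicate numbers. The GFP-positive difference was 0.24 without control replicate 1 and 1.22 without control replicate 2, and the GFP-negative difference was 0.19 and 1.18. Both probe sets of Hspb1 gave a like value in GFP-positive cells (0.73 and 0.79).

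The other small heat shock genes did not pass the test. Cryab, which encodes αB-crystallin, had signals of 5270 and 7254 in GFP-positive cells, 6361 and 9200 in GFP-negative cells, and 4135 and 6942 in control cells. At this probe set, its brightest, the GFP-negative arrays were the highest within each replicate number, by 0.51 ± 0.32 over control (limma adjusted p = 0.0560 with the block). The other probe sets of Cryab stood at 0.23 ± 0.22 and -0.07 ± 0.64 in GFP-negative cells. Hspb2, which lies beside Cryab in the genome and is known from muscle, had 305 and 297 in GFP-positive, 308 and 331 in GFP-negative, and 252 and 207 in control cells, groups that do not overlap with control. Hspb8, the partner of Bag3, differed by 0.17 ± 0.20 in GFP-positive and 0.11 ± 0.20 in GFP-negative cells at its brightest probe set, while its dimmest usable probe set stood at -0.70 in GFP-positive cells without overlap with control, and the mean of its probe sets at -0.15. Hspb6 and Hspb7, both known from muscle, did not keep a direction in GFP-positive cells at their brightest probe sets: Hspb7 differed between GFP-positive and control cells by 0.83 within replicate 1 and -0.73 within replicate 2, and Hspb6 by 0.48 and -0.33. The other probe sets of Hspb7 stood at -0.18 ± 0.50 and -1.36 ± 0.74 in GFP-positive cells. The last, its dimmest, lay below control without overlap (-0.30 and -2.41). In GFP-negative cells Hspb7 lay above control without overlap, by 0.63 ± 0.53 (0.78 and 0.49), at its brightest probe set. With each gene at its brightest probe set, the median over the 6 small heat shock genes was 0.19 in GFP-positive and 0.47 in GFP-negative cells. Over all 13223 genes it was 0.04 in either comparison. The 0.47 depends on that choice. In GFP-negative cells the other probe sets stood at 0.73 for Hspb1, 0.18 and -0.22 for Hspb7, and -0.04 and 0.01 for Hspb8.

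Several small heat shock genes are abundant in muscle, so muscle markers are given beside them. Of 11 skeletal muscle markers 6 were bright enough to be tested. With the block 3 of them rose in GFP-positive cells (Acta1, Des and Chrna1, 50%, against 3.15% of probe sets). In GFP-negative cells 2 rose (33.3%, against 1.9%). Of the 6 markers, 4 had a positive difference in GFP-positive and 5 in GFP-negative cells. Their summed signal, mostly Acta1, was 13682 and 13764 in GFP-positive, 13628 and 17107 in GFP-negative, and 4751 and 9837 in control cells. The other tested markers, Myod1, Ckm and Mylpf, were not called in GFP-positive cells. Myog, Myf5, Myh3, Tnnt1 and Tnnt3 were below the brightness filter. The summed signal of 7 smooth muscle markers was 129425 and 148289 in GFP-positive, 130711 and 140126 in GFP-negative, and 101126 and 151931 in control cells, with none called. The part of these markers in the Hspb1 result was not tested.

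The inducible HSP70 genes were highest in GFP-positive cells without passing the test. Hspa1a had signals of 728 and 715 in GFP-positive cells, 428 and 535 in GFP-negative cells, and 552 and 314 in control cells. Both GFP-positive arrays were above the other 4 arrays, and the control arrays lay on both sides of the GFP-negative ones within their replicate numbers. The difference of GFP-positive against control cells was 0.75 ± 0.32, the largest estimate among the 32 genes, with a limma adjusted p of 0.710 without the block and 0.117 with it, and it was 0.38 within replicate 1 and 1.11 within replicate 2. Its near copy Hspa1b had 3978 and 3630 in GFP-positive, 3194 and 2920 in GFP-negative, and 3124 and 2245 in control cells. Again both GFP-positive arrays were above the other 4. The difference was 0.52 ± 0.23, with a limma adjusted p of 0.740 without the block and 0.0596 with it. The probe sets of Hspa1b spanned differences from 0.11 to 0.52, and since the copies share sequence their 2 results are not separate evidence.

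The other HSP70 genes did not pass the test. Hspa8, the main cytosolic HSP70 of unstressed cells, had 26517 and 31862 in GFP-positive, 23783 and 29172 in GFP-negative, and 20952 and 34402 in control cells, so that at this probe set the 2 control arrays enclosed all treated ones. Its difference between GFP-positive and control cells was 0.11 ± 0.29, 0.34 within replicate 1 and -0.11 within replicate 2. All 4 probe sets of Hspa8 were positive, up to 0.78 at a dim one, their mean gave 0.39, and at the next brightest, with 25336 and 29739 in GFP-positive and 19716 and 25258 in control cells, the groups did not overlap. Hspa14, a ribosome-associated HSP70, differed by 0.18 ± 0.25, Hspa2, known from the testis, by -0.08 ± 0.25, and Hspa13, a microsomal member, by -0.12 ± 0.24. The dimmer probe sets of Hspa13 stood at -0.07 ± 0.21, 0.09 ± 0.25 and -0.63 ± 0.35. The last lay below control without overlap, by -0.39 and -0.86 within the replicate numbers (limma adjusted p = 0.114 with the block). Hspa12a, a distant relative, had the lowest difference of all 32 genes, -0.38 ± 0.51, from 0.08 within replicate 1 and -0.84 within replicate 2. None of these 5 genes passed the test in any comparison.

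The HSP110 genes, whose products exchange the nucleotide of HSP70, all lay above control in GFP-positive cells within both replicate numbers, and none passed the test at its brightest probe set. Hspa4l had 563 and 855 in GFP-positive, 475 and 737 in GFP-negative, and 465 and 468 in control cells, a difference of 0.54 ± 0.32 between GFP-positive and control cells (limma adjusted p = 0.175 with the block). Hspa4 had 6321 and 7275 in GFP-positive, 5125 and 5818 in GFP-negative, and 3854 and 6764 in control cells, a difference of 0.41 ± 0.29, but only this 1 of its 3 probe sets was positive. Hsph1, whose window holds a 3-unit element, had 2439 and 3642 in GFP-positive, 2083 and 3217 in GFP-negative, and 1953 and 3142 in control cells, a difference of 0.26 ± 0.34. Its other probe set had 2119 and 3050 in GFP-positive, 1359 and 2223 in GFP-negative, and 1434 and 2084 in control cells. There GFP-positive cells lay above control without overlap, by 0.55 ± 0.33 (0.55 and 0.54 within the replicate numbers), with a limma adjusted p of 0.889 without the block and 0.0474 with it.

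Hsp90aa1, the inducible cytosolic HSP90, differed at its brightest probe set by the same amount within both replicate numbers. Its signals were 24188 and 24623 in GFP-positive cells, 21077 and 16853 in GFP-negative cells, and 15718 and 16047 in control cells. At this probe set the 3 groups did not overlap, with GFP-positive cells highest and control cells lowest. The difference of GFP-positive against control cells was 0.62 ± 0.21 and was 0.62 within either replicate number, with a limma adjusted p of 0.528 without the block and 0.0165 with it. Leaving out any single array left it between 0.60 and 0.63. It was the only member at least 1.5-fold higher within both replicate numbers (3.1% of 32 genes, against 5.19% of all probe sets, so no more than the background), and 0 members were as much lower (against 4.42%). Against control, GFP-negative cells differed by 0.25 ± 0.21 (limma adjusted p = 0.383 with the block). At the second brightest probe set GFP-positive cells differed from control by 0.53 ± 0.31 (0.72 and 0.34 within the replicate numbers), and the groups overlapped. In GFP-positive cells the probe sets of the gene ranged from -0.05 to 0.62, with 4 of 5 positive. The order of the treated groups was not the same at all of them: the third brightest had 13275 and 14907 in GFP-positive, 12514 and 17303 in GFP-negative, and 9069 and 11886 in control cells, with a difference of 0.50 ± 0.25 for GFP-negative cells (limma adjusted p = 0.0515 with the block).

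All 5 co-chaperones lay above control in GFP-positive cells without overlap of the groups (17.3% of all probe sets do so), with a median difference of 0.44. Stip1, which joins HSP70 to HSP90, had 3116 and 3963 in GFP-positive, 2658 and 3319 in GFP-negative, and 2198 and 2549 in control cells. All treated arrays were above both control arrays. Its difference in GFP-positive cells was 0.56 ± 0.23 (0.50 and 0.63 within the replicate numbers), with a limma adjusted p of 0.677 without the block and 0.0307 with it, and it was 0.39 to 0.74 when any single array was left out. Chordc1, an HSP90 partner with 3-unit elements at its start, had 2947 and 4571 in GFP-positive, 2760 and 3925 in GFP-negative, and 2078 and 2867 in control cells. Only GFP-negative replicate 1 lay below a control array. The GFP-positive difference of Chordc1 was 0.58 ± 0.30 (0.50 and 0.67), with a limma adjusted p of 0.822 without the block and 0.0264 with it. It was 0.27 with GFP-positive replicate 2 left out, 0.35 with control replicate 1 left out and 0.90 with GFP-positive replicate 1 left out.

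Bag3, an exchange factor of HSP70 that serves selective autophagy, had 1893 and 2243 in GFP-positive, 1548 and 1862 in GFP-negative, and 1664 and 1370 in control cells. GFP-positive cells differed from control by 0.44 ± 0.23 (limma adjusted p = 0.168 with the block), and the GFP-negative arrays overlapped with control. Ahsa1, the activator of the HSP90 ATPase, differed by 0.26 ± 0.21 in GFP-positive and 0.18 ± 0.21 in GFP-negative cells, without overlap with control in either. Fkbp4, a prolyl isomerase of HSP90-steroid receptor complexes, differed by 0.44 ± 0.39 in GFP-positive cells at its brightest probe set, but by a negative value at both other probe sets, down to -0.49.

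**Figure D2:**
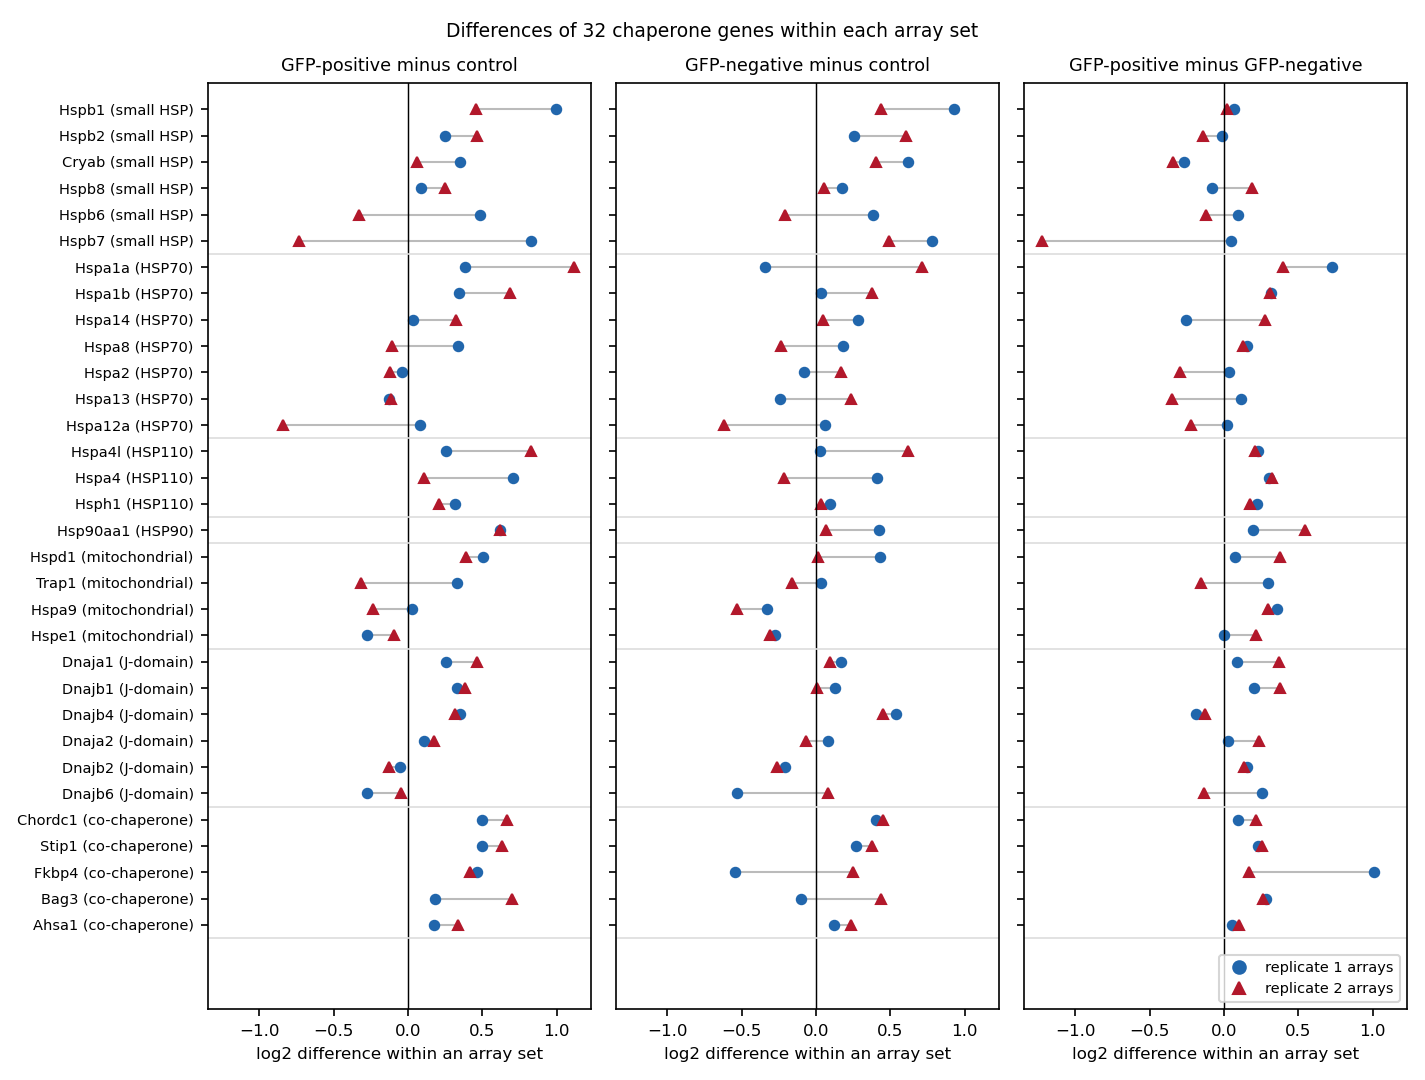
Log2 difference of each of the 32 tested genes within the replicate 1 arrays (circle) and within the replicate 2 arrays (triangle) for the 3 comparisons, grouped by role, with a line joining the 2 values of a gene. In GFP-positive against control cells both values were above 0 for 21 genes, all 5 co-chaperones among them, and below 0 for 5.

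The J-domain genes, whose products hand substrates to HSP70, did not pass the test. Dnajb1, the stress-inducible partner of HSP70, had 2367 and 3105 in GFP-positive, 2054 and 2386 in GFP-negative, and 1879 and 2375 in control cells, a difference of 0.36 ± 0.24 between GFP-positive and control cells that was alike within both replicate numbers (0.33 and 0.38). Dnaja1 differed by 0.36 ± 0.41 and Dnaja2 by 0.14 ± 0.28 in the same comparison. Dnajb4 had 3735 and 5149 in GFP-positive, 4254 and 5639 in GFP-negative, and 2919 and 4127 in control cells. Its GFP-negative arrays were highest within each replicate number, by 0.49 ± 0.28 over control (limma adjusted p = 0.0607 with the block). Dnajb2, known from neurons, and Dnajb6, which suppresses protein aggregates, had negative differences in GFP-positive cells at their brightest probe sets, -0.09 ± 0.30 and -0.16 ± 0.34. For Dnajb6 the other 3 probe sets were positive, and the mean of its probe sets was 0.17.

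The mitochondrial chaperones did not move together. Hspd1, the mitochondrial chaperonin, had 14253 and 17725 in GFP-positive, 13560 and 13650 in GFP-negative, and 10053 and 13536 in control cells. The 3 groups did not overlap, with GFP-positive cells highest, and the difference from control was 0.45 ± 0.23 (limma adjusted p = 0.0748 with the block). Hspe1, its co-chaperonin, which shares the promoter site, had 7790 and 11686 in GFP-positive, 7804 and 10058 in GFP-negative, and 9438 and 12457 in control cells. Within each replicate number the control was the highest, by a difference of -0.18 ± 0.28 for GFP-positive cells, although the gene's other probe set had 0.24. Hspa9, the mitochondrial HSP70, differed at its brightest probe set by -0.10 ± 0.29 in GFP-positive cells. In GFP-negative cells it differed there by -0.43 ± 0.29 (limma adjusted p = 0.0952 with the block). Its next brightest probe set lay below control without overlap in GFP-positive (-0.47 ± 0.23) and GFP-negative cells (-0.61 ± 0.23). A dimmer probe set did so too, with -0.49 ± 0.25 and -0.77 ± 0.25. For GFP-negative cells their limma adjusted p was 0.0677 and 0.0510 with the block. None of the 5 probe sets of Hspa9 was above 0 in GFP-positive cells, but 2 were in GFP-negative cells. Trap1, the mitochondrial HSP90, differed by 0.01 ± 0.25 in GFP-positive and -0.07 ± 0.25 in GFP-negative cells. The heat shock factor Hsf2 had 62.1 and 58.4 in GFP-positive, 73.8 and 70.1 in GFP-negative, and 72.6 and 12.7 in control cells, under the mean of 67.71 that a test required.

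Over the 32 genes the median difference of GFP-positive against control cells was 0.26, against 0.04 over all 13223 genes, and it was 0.32 within replicate 1 and 0.28 within replicate 2, against 0.03 and 0.06 over all genes. GFP-positive arrays were above control within both replicate numbers for 21 of 32 genes (65.6%, against 34.6% of all probe sets) and below for 5 (15.6%, against 28.5%). Both GFP-positive arrays lay above both control arrays for 13 of 32 (40.6%, against 17.3% of probe sets), and below for 2 (against 14.9%), Hspa2 and Hspa13. These counts depend on the choice of the brightest probe set. Other usable probe sets lay below without overlap for Fkbp4, Hspa9, Hspa13, Hspb7 and Hspb8. Others lay above for Dnajb6, Hsp90aa1, Hspa1b, Hspa4l, Hspa8, Hspb8, Hspe1 and Hsph1. The median moved with single arrays, whose removal also unbalances the replicate numbers: without control replicate 1 it was 0.095, when the median of all genes was 0.093, and it was 0.14 with GFP-positive replicate 2 left out and 0.43 with GFP-positive replicate 1 left out. With the mean of each gene's probe sets in place of the brightest, the median was 0.16. Of the 23 genes with several usable probe sets, 11 had all of them on the same side of 0 and 12 did not.

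**Figure D3:**
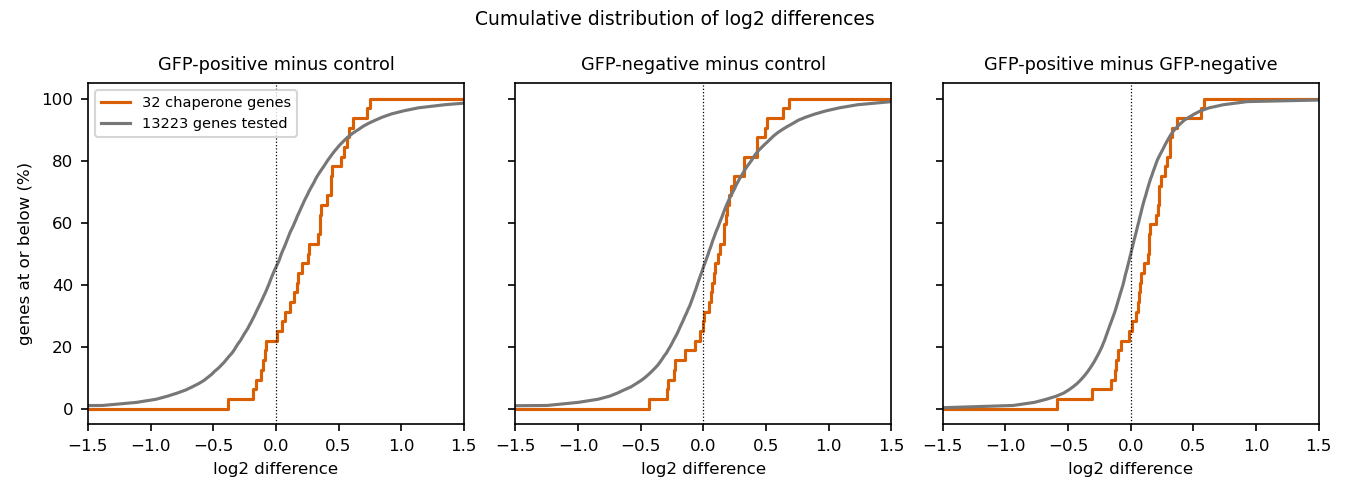
Cumulative share of genes, in percent, at or below a given log2 difference, for the 32 tested heat shock and chaperone genes and for all 13223 tested genes in the 3 comparisons. The medians were 0.26 against 0.04, 0.12 against 0.04 and 0.14 against 0.00.

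In GFP-negative cells, set against control, Hspb1 was the member that rose. Without the block limma called 0 of the 32 genes and 0.0296% of probe sets (8 of 27022), and 0 members had an unadjusted p under 0.05, against 5.07% of probe sets. With the block 1 member was called, Hspb1, beside 3.57% of probe sets (1.9% higher and 1.68% lower), and without the trend this fit called none. At an unadjusted p under 0.05 the blocked fit had 5 members higher (against 9.11% of probe sets) and 2 lower (against 7.05%). The median of the 32 genes was 0.12, against 0.04 over all genes, and 23 of the 32 were positive (71.9%, against 54.5% of all genes). Both GFP-negative arrays lay above both control arrays for 10 genes (31.2%, against 15.1% of probe sets) and below for 0 (against 13.5%). Other usable probe sets lay below without overlap for Hspa1b and Hspa9, and above for Cryab, Hsp90aa1, Hspa4 and Hspa4l. GFP-negative arrays were above control within both replicate numbers for 17 genes (53.1%, against 33.8%) and below for 3 (9.38%, against 26.8%), and no member was 1.5-fold higher (4.8%) or lower (3.29%) within both. The median was 0.025 without control replicate 1, 0.035 with GFP-negative replicate 2 left out, 0.23 with GFP-negative replicate 1 left out and 0.24 without control replicate 2.

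The 2 treated groups, which share the drug and the further sort and differ in whether GFP came on, were compared directly. None of the 32 genes passed the test, nor did any probe set, in either fit: 0% of 27022 were called, 0.625% had an unadjusted p under 0.05 without the block and 5.75% with it. Among the members, 0 had an unadjusted p under 0.05 without the block and 5 with it, 4 higher (against 2.54% of probe sets) and 1 lower in GFP-positive cells (against 3.21%). The median difference of the members was 0.14, against 0.00 over all genes, and it was 0.11 within replicate 1 and 0.19 within replicate 2. Of the 32, 24 were positive (75%, against 50.1% of all genes). With the mean of each gene's probe sets the median was 0.086, with 19 of 32 positive. Of the 23 genes with several usable probe sets, 11 had them on both sides of 0 in this comparison. GFP-positive arrays were above GFP-negative ones within both replicate numbers for 19 genes (59.4%, against 26.6% of probe sets), and below for 3 (9.38%, against 27.4%), Cryab, Hspb2 and Dnajb4. Both GFP-positive arrays were above both GFP-negative ones for 6 genes (18.8%, against 10.6%) and below for 1, Hspb2 (against 10%), and no member was 1.5-fold higher (1.27%) or lower (1.62%) within both replicate numbers. These counts depend on the choice of the brightest probe set. Other usable probe sets lay below without overlap for Cryab, Dnajb4, Fkbp4, Hspa4, Hspa4l and Hspb8. Others lay above for Dnaja1, Hspa1b, Hspa8, Hspa9, Hspb8 and Trap1. Hsp90aa1 differed by 0.37 ± 0.21, with 0.20 and 0.55 within the replicate numbers (limma adjusted p = 0.823 with the block), and Hspa1a by 0.56 ± 0.32 (0.856). The median was -0.011 with GFP-positive replicate 2 left out, -0.015 with GFP-negative replicate 1 left out and 0.30 with GFP-positive replicate 1 left out. Comparisons that share a group share its arrays, so the larger differences of GFP-positive cells from control and from GFP-negative cells are not separate evidence.

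Genes with and without the 2-unit element GAANNTTC in the promoter window were set side by side as a description. The opposite order of the units, TTCNNGAA, was not searched on its own. A window of Dnajb4, counted here without the element, holds it, so the split is by this motif only. The 13 tested genes with a 2-unit element had a median difference between GFP-positive and control cells of 0.44, with 11 positive. The 13 tested genes with a window but no such element had a median of 0.18, with 10 positive. The difference between these medians was not tested. The genes with the element include the near copies Hspa1a and Hspa1b, and Hspd1 and Hspe1, which share a site. Among them Dnajb6, Fkbp4, Hspb8 and Hspe1 had probe sets on both sides of 0. So did Dnaja2, Dnajb4, Hspa12a, Hspa4, Hspb7 and Trap1 among the genes without it. The 5 genes with a 3-unit element had a median of 0.26, with 3 positive, and spanned Chordc1 at the top and Hspe1 at the bottom. In GFP-negative cells the medians were 0.13 with the 2-unit element and 0.10 without it.

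Other parts of the protein quality control system were followed in lists fixed by name, with earlier results of these data known. Among 24 tested co-chaperones outside the 35 genes, 14 were positive in GFP-positive cells (58.3%, near the 54.4% of all genes) and 3 rose with the block (12.5%, against 3.15% of probe sets). Cacybp, a partner of the ubiquitin ligase Siah1, differed by 0.89 ± 0.22 (0.87 and 0.91 within the replicate numbers, limma adjusted p = 0.314 without the block and 0.00180 with it). Dnaja4, a J-domain protein close to Dnaja1, differed by 0.91 ± 0.25 (0.0195 with the block), and Dnajc2, a ribosome-associated J-domain protein, by 0.71 ± 0.27 (0.0481). Cacybp and Dnaja4 exceeded every one of the 32 members. The list's median was 0.11.

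Of 14 tested genes of the chaperonin CCT, which folds actin and tubulin, and its partner prefoldin, 13 were positive in GFP-positive cells with a median of 0.26. With the block 1 rose (7.14%, against 3.15% of probe sets), Cct7 by 0.48 ± 0.22 (limma adjusted p = 0.0483), and 1 fell, Pfdn5, whose difference was -0.67 ± 0.30 (0.0140). Of 31 proteasome genes 27 were positive (87.1%, against 54.4% of all genes), with a median of 0.25, and 1 rose with the block (3.23%, near the 3.15% of all probe sets): Psmd12, a subunit of the proteasome lid, differed by 0.49 ± 0.26 (limma adjusted p = 0.0482). Of 16 chaperones of the endoplasmic reticulum 14 were positive with a median of 0.15, and 0 passed the test in either fit. Their highest-ranked gene was Creld2, which is induced by stress of that compartment, at 0.51 ± 0.28 (limma adjusted p = 0.0684 with the block).

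The further mitochondrial chaperones and proteases stood at a median of 0.03 in GFP-positive and -0.14 in GFP-negative cells, with 6 and 3 of 10 tested genes positive. Lonp1, a protease of the mitochondrial matrix, fell with the block in both treated groups, with a difference of -0.56 ± 0.21 in GFP-positive cells (limma adjusted p = 0.0378) and -0.83 ± 0.21 in GFP-negative cells (0.00724). In GFP-negative cells the medians were 0.10 for the other co-chaperones, 0.13 for CCT and prefoldin, 0.14 for the proteasome and 0.09 for the endoplasmic reticulum, and none of these genes was called. No gene of these 5 lists was called without the block in any comparison. Between the treated groups none was called with the block either, and the list medians ran from -0.01 for the other co-chaperones to 0.15 for the mitochondrial genes. Among the other co-chaperones, Dnajb14, Cacybp and Dnajb5 had the smallest unadjusted p there in limma without the block. They differed by -1.04 ± 0.33, 0.52 ± 0.22 and -0.78 ± 0.41 (limma adjusted p = 0.725, 0.725 and 0.776 with the block).

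**Figure D4:**
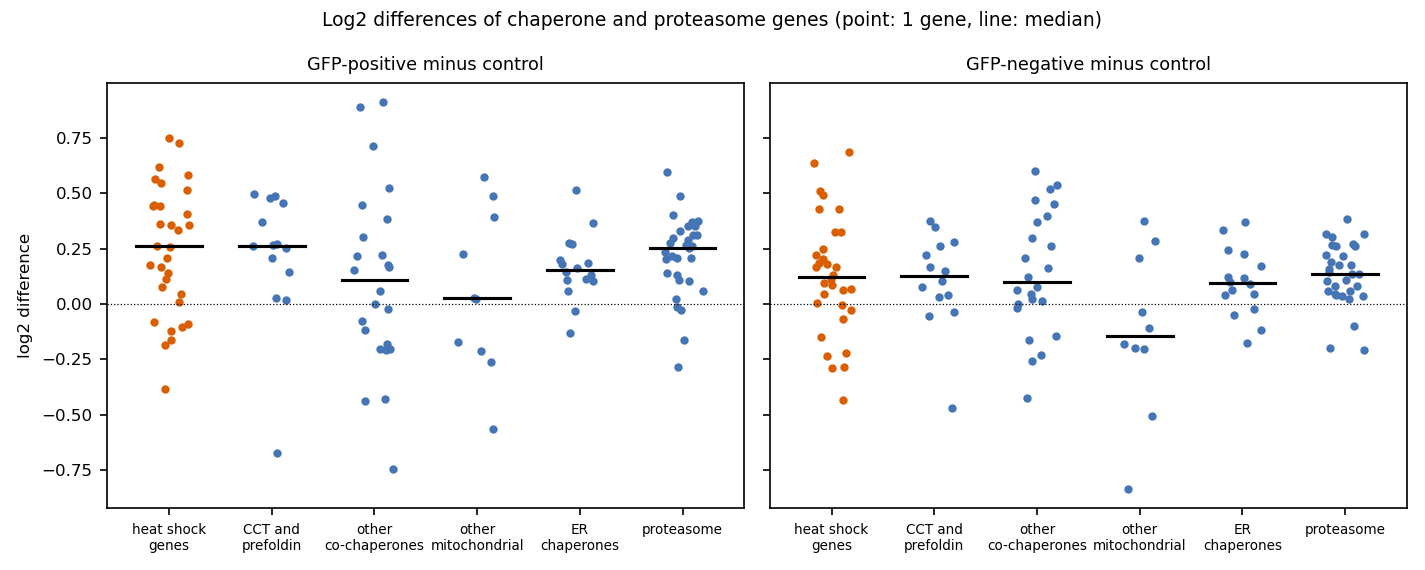
Log2 difference of each tested gene (point) and the median (line) for the 32 heat shock and chaperone genes and 5 other lists, in GFP-positive against control and GFP-negative against control cells; sideways spread within a column has no meaning. In GFP-positive cells the medians ran from 0.03 for the further mitochondrial genes to 0.26 for the heat shock genes and for CCT and prefoldin.

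The cells' identity was read from markers fixed by name. The summed signal of 12 fibroblast markers was 178764 and 174920 in GFP-positive, 191663 and 177873 in GFP-negative, and 225197 and 228642 in control cells. With the block 8 of them fell in GFP-positive cells (66.7%, against 3.06% of probe sets) and 6 in GFP-negative cells (50%, against 1.68%). Dcn, Lum and Pdgfra were among those that fell, and 2 of the 12 had a positive difference in each treated group. Of 8 leukocyte markers 5 were tested and of 7 keratinocyte markers 4 were, with none called, and their summed signals were 1458 and 1479 against 1165 and 859 for leukocytes and 752 and 527 against 786 and 493 for keratinocytes, in GFP-positive against control cells. The part of these shifts in the chaperone differences was not tested.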

How the data were processed

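Total RNA of 6 samples was measured on Affymetrix arrays of 45101 probe sets. The deposited table held linear signal intensity, 1 value for each probe set on each array, which the authors made with MAS5 per the submitters' processing notes, with no settings stated. Arrays were brought to a common 2% trimmed mean of 500, which changed 2 of them. Of 45037 probe sets that are not controls, 34945 carried 1 symbol, 932 several and 9160 none in the platform annotation. An offset of 30.64 was added before log2, and 27022 probe sets with a mean signal of at least 67.71, the 40th percentile, were tested. Linear models over all 6 arrays (limma 3.58.1 in R 4.3.3, eBayes with trend, 3 residual degrees of freedom) gave two-sided p-values, adjusted by Benjamini-Hochberg over all probe sets. The replicate number as a block was an alternative, printed throughout because deviations of same-numbered arrays from their group means correlated at 0.506 to 0.556.

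The genes, lists and tests were chosen with earlier results of these data known. All 35 genes were to be named, and of each other list those with the 3 smallest p in each comparison. For the other lists this was not carried through: mainly the genes called with the block are named. The labels do not say whether replicates came from separate cultures or animals, so p-values measure only the spread between these samples, and 2 arrays per group limit the precision. Alternatives were other normalizations, offsets and filters, no trend, only the groups compared, other choices of probe sets, and leaving out each array. The fits were tested on simulated data. Coordinates are those of the RefSeq promoter table, and the array files name no build.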

Additional observations from a re-analysis of the deposited data

How the results depend on the processing

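The number of probe sets called depended most on the fit. For GFP-positive against control cells it was 33 as reported, 1679 with the replicate number as a block, 1622 with the block and quantile normalization, 8 with the block and no trend, 0 without a trend, 62 without both rescaled arrays and 0 to 35 when each array was left out. For GFP-negative against control cells it was 8 as reported, 966 with the block, 914 with the block and quantile normalization, 0 with the block and no trend, 0 without a trend, 4 with median centring, 3 with an offset of 7.66, 3 with the 60th percentile filter, 3 with only the groups compared, 15 with the mean of a gene's probe sets, 5 without probe sets that bind related transcripts, 49 without both rescaled arrays and 0 to 6 when each array was left out. The block called 4 members in GFP-positive and 1 in GFP-negative cells; with quantile normalization these were 6, with Hspa1b (limma adjusted p = 0.0488) and Hspd1 (0.0427) added, and 3, with Cryab (0.0260) and Dnajb4 (0.0388) added. The block changed no other member's call. The number of members at least 1.5-fold higher in GFP-positive cells within both replicate numbers was 1 as reported and 0 under quantile normalization, median centring and the mean of a gene's probe sets. The median over members in GFP-positive cells, 0.26, was 0.23 with median centring, 0.16 with the mean of a gene's probe sets, 0.30 without probe sets that bind related transcripts, 0.14 without both rescaled arrays and 0.095 to 0.43 when each array was left out. In GFP-negative cells, 0.12 as reported, it was 0.080, 0.18, 0.15 and 0.035 under the same settings and 0.025 to 0.24 when each array was left out. Between the treated groups it was 0.14, 0.086 with the mean of a gene's probe sets, and -0.015 to 0.30 when each array was left out. Over all alternatives, 16 of 32 members kept their sign in GFP-positive cells, 17 in GFP-negative cells and 10 between the treated groups. Block without a trend, block with quantile normalization and leaving out both rescaled arrays were chosen after seeing the data. The cause of these changes was not tested. Dim probe sets were most affected by the difference between array sets, and Hsf2 could not be assessed.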
